A study of Rattus norvegicus with 11 samples.

Results

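The genes described here are the 40 named for glycolysis, gluconeogenesis, the use of pyruvate and the citrate cycle, followed in the liver of control rats and of rats given mequindox. They were chosen by name, from the enzymes, transporters and regulators of these pathways, with earlier results of these data known. Each was read from the brightest probe set that carries its symbol alone. Of the 40, 37 had such a probe set, with 56 probe sets in all, out of 14217 genes with a probe set of their own on the array. Of these, 36 entered the test across all genes. Gapdh was read from Affymetrix control probe sets outside that test, G6pc1 stood only on probe sets shared with other symbols, and Dlat and Fh were not analysed here. All 36 passed the filter on dim signals.

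Livers of Wistar rats were hybridised 1 animal to 1 Affymetrix array: 3 control animals (numbers 1, 2 and 9) and 8 high-dosed animals (numbers 2, 3, 4, 5, 6, 8, 10 and 11). High-dosed animals received mequindox, a quinoxaline N-oxide antibacterial for livestock; its dose by mass, its duration and any vehicle are not given in the sources used here. Every animal was aged week 9, apart from high-dosed animal 8 at week 10. The series' design text says that both groups went to arrays with clinical chemistry and a principal component analysis of aqueous extracts already in hand. The question put to the data was how each step of central carbon metabolism differed between the groups in transcript signal.

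Glycolysis splits glucose to pyruvate, and the liver can also run most of these steps backwards to release glucose during fasting. Pyruvate enters mitochondria through a carrier and is then either carboxylated toward glucose or oxidised by the pyruvate dehydrogenase complex, which pyruvate dehydrogenase kinases switch off by phosphorylation. The citrate cycle burns the resulting acetyl groups and supplies intermediates for glucose and fat synthesis.

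Single steps of these pathways moved, in both directions, while most steps did not pass the test. The regulator Ppargc1a (1.98-fold), the isomerase Gpi (1.42-fold) and the glucose transporter Slc2a2 (1.27-fold) were higher in the high-dosed animals. Pdk4 (1.61-fold), Pgk1 (1.29-fold), Ldha (1.26-fold) and Mdh2 (1.19-fold) were lower. The other 29 of 36 were not called, among them Pck1, Pck2, Pc and Fbp1, the enzymes tested under gluconeogenesis. A gene was called at a Benjamini-Hochberg adjusted p below 0.05 in limma, a linear model with moderated variances, over 10714 genes; fold changes are on the log2(intensity + 55.26) scale throughout, which understates the change of dim genes. The 7 calls are 19.4% of the 36 members, beside 10.6% of all genes tested. Because the members were chosen with earlier results of these data known, this share is no evidence about the pathways. The 3 higher calls are close to the background share of 7.91%, so their number is no result about the members. The 4 lower calls stand above their background of 2.74%. Fewer members were called lower after median centring, where lower calls over all genes also fell, from 294 to 147. For 4 members the groups did not overlap (Gpi and Ppargc1a higher, Pgk1 and Pdk4 lower), a share close to the 12.1% of all genes. The median log2 fold change over members was -0.03, beside 0.02 over all genes, and the median absolute value was 0.11, beside 0.12. In 22 of the 36 the fold change was within 0.15 of 0 on the log2 scale.

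**Figure D1:**
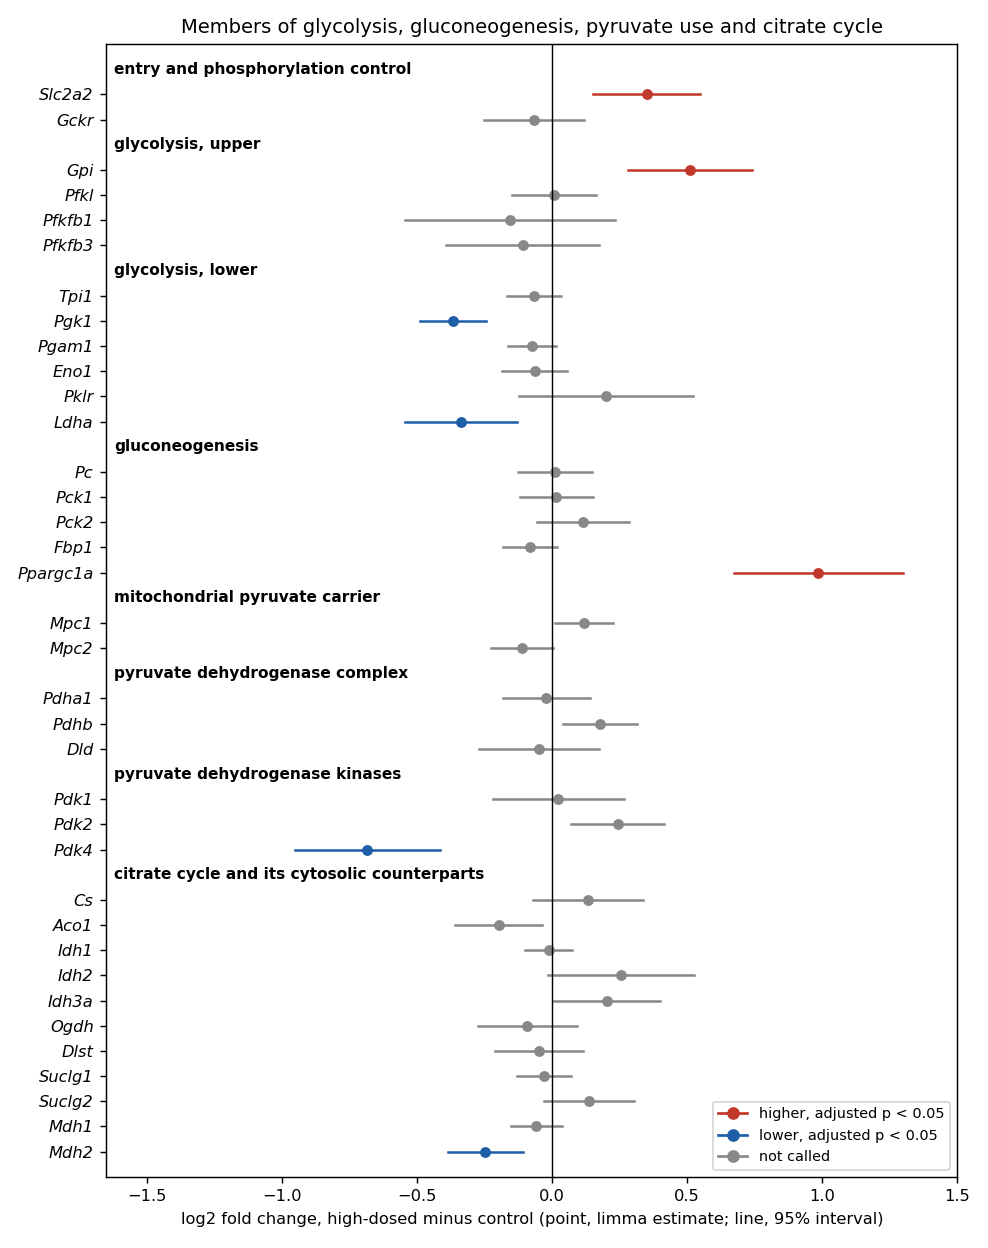
Log2 fold change of the 36 tested members, high-dosed minus control, ordered by pathway step (horizontal axis, log2 units; points, limma estimates; lines, 95% intervals; n = 3 control and 8 high-dosed animals). The 3 red points from 0.35 to 0.99 are the higher calls and the 4 blue points from -0.68 to -0.25 the lower calls; the 29 grey points lie between -0.20 and 0.26.

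Of the 36 members, 16 had a log2 fold change above 0 and 20 below. In a bulk sample, fewer cells of a type and less RNA per cell cannot be told apart. The tissue carried its defining hepatocyte transcripts. Summed intensities of 13 hepatocyte markers ran from 235690 to 236190 in controls and from 231560 to 243560 in high-dosed animals. Of the 13, 1 rose (Apoa1) and 1 fell (Asgr1). The brightest, Alb, read 33424 to 34328 across the animals, up to the highest value on any array. Whether signals this bright understate a change in transcript was not tested. Summed intensities of 7 endothelial markers were 10026 to 11159 in controls and 11445 to 12582 in high-dosed animals, without overlap, and 3 of the 7 were called higher (Emcn, Pecam1, Stab2). The 11 macrophage markers summed to 25200 to 32271 and 31084 to 41208, with 1 called higher (Mrc1). The 2 cholangiocyte markers in the test summed to 551 to 706 and 844 to 1536, with Epcam called higher. No gene of the stellate cell (8), erythroid (4), lymphocyte and neutrophil (6), muscle (1) or pericentral (9) lists was called, while the 10 periportal markers had 2 higher (Asl, Sds) and 1 lower (Hal). Ckm, the muscle marker tested, read 175 to 221 in controls and 125 to 725 in high-dosed animals, with the 725 in animal 11. Of the 8 stellate cell markers, that animal was highest for Des (325), Dcn (1397), Col1a1 (533), Col1a2 (1621) and Col3a1 (7461). It was lowest for Pdgfrb (206) and at neither end for Lrat and Reln. The part of these markers in the results on the members was not tested. Array medians ran from 149 to 187, lowest in high-dosed animals 8, 10 and 11.

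Promoter sequence is shown for Ppargc1a, Ldha and Mdh2, because these called genes are the ones that share a complete cAMP response element, the site of the factor through which glucagon signals reach gluconeogenic genes. RefSeq promoters (GRCr8) were found for 37 of the 40 members and 6 of the 7 called ones. Pgk1 was the called member without a promoter entry, so it was not searched for any motif. The window searched held 250 bases before and 50 after the start, on both strands. Capitals mark the cAMP response element TGACGTCA and, in Ldha, also the hypoxia element core ACGTG, which reads CACGT on the other strand and lies within the E-box CACGTG. The 250 bases before the start are chr14:63634058-63634307 on the plus strand for Ppargc1a, chr1:106507842-106508091 on the plus strand for Ldha and chr12:26543842-26544091 on the minus strand for Mdh2.
Ppargc1a: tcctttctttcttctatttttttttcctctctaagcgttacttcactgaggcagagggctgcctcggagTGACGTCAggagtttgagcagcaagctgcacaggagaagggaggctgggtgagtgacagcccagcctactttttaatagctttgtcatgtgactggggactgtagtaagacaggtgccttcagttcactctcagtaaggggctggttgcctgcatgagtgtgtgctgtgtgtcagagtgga
Ldha: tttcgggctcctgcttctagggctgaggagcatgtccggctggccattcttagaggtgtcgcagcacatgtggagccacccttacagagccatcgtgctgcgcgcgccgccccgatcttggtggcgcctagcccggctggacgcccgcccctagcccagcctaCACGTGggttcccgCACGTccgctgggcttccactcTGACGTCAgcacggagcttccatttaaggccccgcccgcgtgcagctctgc
Mdh2: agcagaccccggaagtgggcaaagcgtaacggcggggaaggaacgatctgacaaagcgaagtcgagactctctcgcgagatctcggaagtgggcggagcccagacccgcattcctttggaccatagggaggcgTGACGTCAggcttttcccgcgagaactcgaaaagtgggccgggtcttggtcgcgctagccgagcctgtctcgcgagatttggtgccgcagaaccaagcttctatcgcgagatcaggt

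The element TGACGTCA begins 181 bases before the start in Ppargc1a, 51 in Ldha and 117 in Mdh2. It was found in 4 member genes, the fourth being Ogdh (not called), or 10.8% of members with a promoter, against 1.83% of all 33469 promoters. For this and the motifs below, member shares count genes (37, with 38 promoters), while the background counts single promoters. Of the 3 called genes that hold it, Ppargc1a was higher and Ldha and Mdh2 were lower, so it did not go with 1 direction. ACGTG was present in 12 member genes (32.4%, against 19.3% of all promoters), of which Ldha and Gpi were called; in Gpi it begins 33 bases after the start. CACGTG, which contains it, was present in 5 (13.5% against 6.42%). The nuclear receptor core AGGTCA occurred in 8 (21.6% against 16.2%), Slc2a2 among them, and the forkhead motif GTAAACA in Pdhb (2.7% against 3.78%). These matches describe the letters and do not show binding.

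Entry of glucose was read from Slc2a2, the low-affinity glucose transporter of the hepatocyte membrane, and Gckr, the protein that holds glucokinase inactive in the nucleus. Slc2a2 intensities were 7221, 6893 and 9344 in control animals 1, 2 and 9, and ran from 8744 (animal 10) over a median of 9769.5 to 11162 (animal 6) in the high-dosed animals. Control 9 stood apart from the other controls and inside the high-dosed range, while 6 of 8 high-dosed animals were above all controls. Slc2a2 had a log2 fold change of 0.35 ± 0.09 (SE), 1.27-fold, with a limma adjusted p of 0.031. Among animals numbered 8 and above, where the only control is number 9, it was -0.00095, and among animals numbered 6 and below 0.53 (limma adjusted p = 0.0097). Without control animal 1, control animal 2 or high-dosed animal 5 it was no longer called (limma adjusted p = 0.168, 0.137 and 0.0508). Gckr was not called (log2 fold change -0.07 ± 0.09).

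In upper glycolysis, Gpi, which interconverts the phosphates of glucose and fructose in both directions of the pathway, was the only 1 of 4 members called. Its intensities were 3038, 2837 and 3409.6 in controls 1, 2 and 9, and from 3852 (animal 10) over 4260.7 to 5451 (animal 2) in the high-dosed animals. Every high-dosed animal was above every control, by a log2 fold change of 0.51 ± 0.11 (SE) with a limma adjusted p of 0.011; without control 1 that p was 0.059. Pfkl, the liver phosphofructokinase that commits glucose to glycolysis, stayed at 0.01 ± 0.07, with a 95% interval from -0.15 to 0.16. Of the enzymes that set its allosteric activator, Pfkfb1, the liver form, was at -0.16 ± 0.18 and Pfkfb3, the inducible form, at -0.11 ± 0.13, neither called. Controls differed more among themselves than the high-dosed animals did for Pfkfb1, from 965 to 2167 against 975 to 1487, so its interval was the widest of the members (-0.55 to 0.23). A dimmer probe set of Pfkfb3 gave 0.16 ± 0.18, of the opposite sign.

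Lower glycolysis had 2 of 6 tested members lower and 0 higher. Pgk1, which makes the first ATP of the payoff phase and is also used in reverse for gluconeogenesis, read 8316, 7814 and 7844 in controls 1, 2 and 9. In the high-dosed animals it ran from 5492 (animal 8) over 6184 to 6737 (animal 3), with no overlap. This gave a log2 fold change of -0.37 ± 0.06 (SE), with a limma adjusted p of 0.0025. Its other probe set above the filter gave -0.36 ± 0.06, a difference smaller than either error. Pgk1 was called in each of the 24 alternative settings but the smallest one, the comparison within animals numbered 8 and above.

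Ldha, a subunit of lactate dehydrogenase that interconverts pyruvate and lactate, read 11419, 12350.2 and 10022 in controls 1, 2 and 9. The high-dosed animals ran from 7406 (animal 2) over 8817 to 10712 (animal 6). In 7 of 8 they were below all controls and animal 6 lay inside the control range. The log2 fold change was -0.34 ± 0.10 (SE), with a limma adjusted p of 0.044. That call was lost in 13 of 24 settings, among them without control 1 (limma adjusted p = 0.17) and without control 2 (0.173), and without high-dosed animals 3, 4, 5, 8 or 11 singly; its direction held in all 24.

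The other members of lower glycolysis in the test were not called. Tpi1, which joins the triose phosphates, was at -0.07 ± 0.05, and its 8 high-dosed values all lay within the control range. Pgam1, the mutase between Pgk1 and enolase, was at -0.08 ± 0.04, with 6 of 8 high-dosed animals below all controls, and Eno1, enolase, at -0.06 ± 0.06, with 6 of 8 below all controls and animals 5 and 10 above them. Pklr, the liver pyruvate kinase, was at 0.20 ± 0.15, with high-dosed intensities from 1998 to 3504 around a control range of 1839 to 2609 and a 95% interval from -0.12 to 0.52, wide enough to hold a change of Gpi's size.

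Gapdh, the dehydrogenase between Tpi1 and Pgk1, was covered by 3 Affymetrix control probe sets. The one at the 3′ end read 10474, 10227 and 10965 in controls 1, 2 and 9 and 10552 to 11902 in the high-dosed animals, with a median of 10894. Differences in log2 intensity were 0.07 (3′), 0.06 (middle) and 0.06 (5′), with exact two-sided permutation p of 0.103, 0.4 and 0.376 over 165 arrangements, for which the smallest possible p is 0.00606. Adjusted over 4 such tests these were 0.412, 0.533 and 0.533. The ratio of 3′ to 5′ signal, a measure of RNA integrity, differed by 0.01 on the log2 scale (exact permutation p = 0.727). The difference between Gapdh and its neighbour Pgk1 in their change was not tested.

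**Figure D2:**
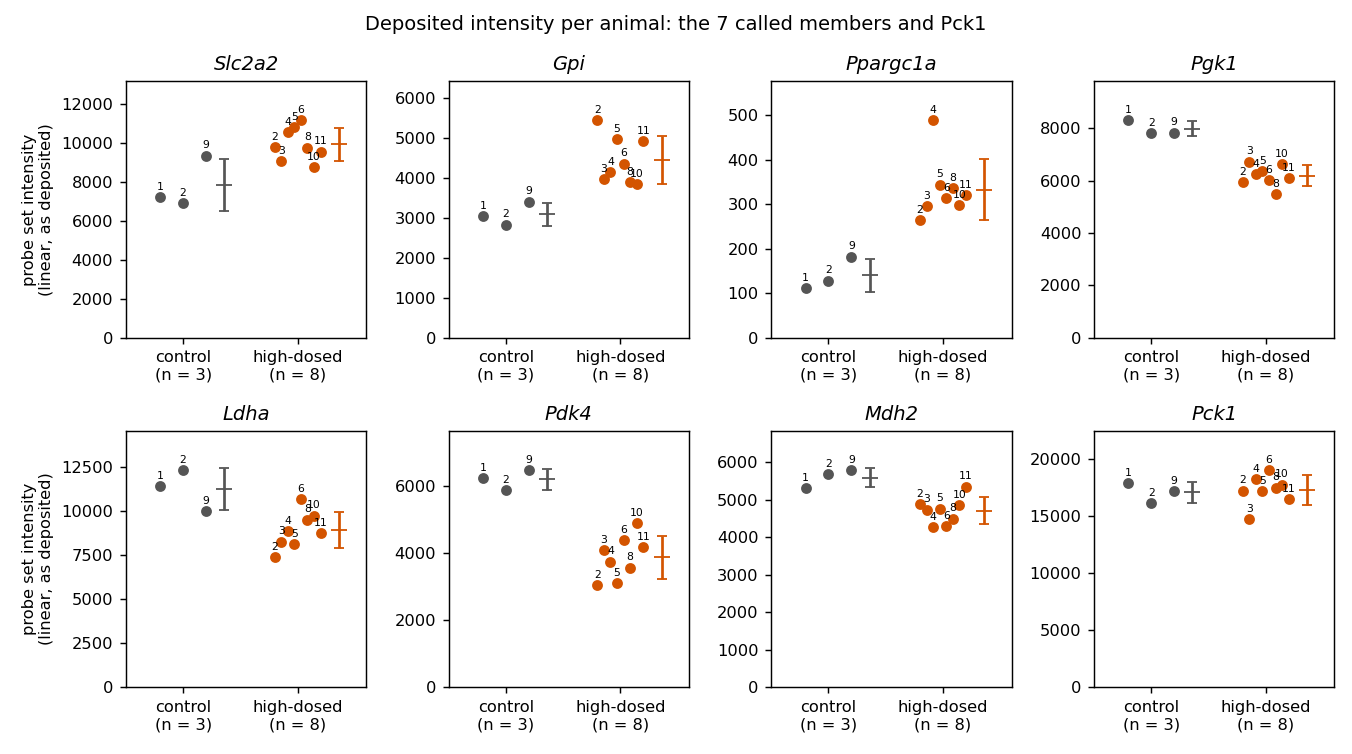
Deposited linear intensity (vertical axis, from 0) of the 7 called members and of Pck1 in each animal, with animal numbers beside the points and the group mean ± SD as a bar (n = 3 and 8). For Gpi, Ppargc1a, Pgk1 and Pdk4 the groups do not overlap, and for Slc2a2 control animal 9 (9344) lies within the high-dosed points; Pck1 is shown as a gene that was not called.

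In gluconeogenesis 1 of 5 tested members was called, the regulator Ppargc1a. This gene encodes a transcriptional coactivator induced by fasting signals that drives gluconeogenic and mitochondrial genes. It was a dim gene in controls, at 112, 128 and 182 in animals 1, 2 and 9, with control 1 just under the signal filter of 113. The high-dosed animals ran from 265 (animal 2) over 318 to 489 (animal 4), all above every control. The log2 fold change was 0.99 ± 0.14 (SE), with a limma adjusted p of 0.0018; with a pseudocount of 1 it was 1.25. A second probe set above the filter gave 0.67 ± 0.13, called when all probe sets were tested (limma adjusted p = 0.010), and 1 more, below the filter, had a log2 difference of 0.42. It was called in all settings but the comparison within animals numbered 8 and above (0.65, limma adjusted p = 0.074).

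Of the members listed under gluconeogenesis, the 4 enzymes tested were not called. Pck1, the cytosolic phosphoenolpyruvate carboxykinase and a textbook target of the coactivator, read 17955, 16179 and 17191 in controls 1, 2 and 9 and 14748 to 19084, with a median of 17403, in the high-dosed animals. Its log2 fold change was 0.01 ± 0.06 with a 95% interval from -0.12 to 0.15. Pck2, the mitochondrial form, was at 0.11 ± 0.08, Pc, the pyruvate carboxylase that begins the pathway, at 0.01 ± 0.06, and Fbp1, the bisphosphatase opposite phosphofructokinase, at -0.08 ± 0.05. In probe set signal, the intervals of Pc (-0.13 to 0.15) and Fbp1 (-0.18 to 0.02) leave out a change of the size seen for Gpi. Fbp1 and Pck1 were much brighter than Gpi, with control means of 14637 and 17108 beside 3095. Whether signals this bright understate a change in transcript was not tested. Pck1 is also a periportal marker, a list of which Sds and Asl rose and Hal fell.

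Pyruvate import showed opposite signs in the subunits of a single carrier, which works as a heterodimer of Mpc1 and Mpc2. Mpc1 was at 0.12 ± 0.05 with 6 of 8 high-dosed animals above all controls, and Mpc2 at -0.11 ± 0.05 with 5 of 8 below. Neither was called (limma adjusted p = 0.151 and 0.212), and the difference between them was not tested.

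The pyruvate dehydrogenase complex itself was not called at any of the 3 subunits tested. The catalytic subunits Pdha1 and Pdhb were at -0.02 ± 0.07 and 0.18 ± 0.06, and Dld, the dihydrolipoamide dehydrogenase shared with the oxoglutarate dehydrogenase complex, at -0.05 ± 0.10. Pdhb came closest (limma adjusted p = 0.096), with 4 of 8 high-dosed animals above all controls, and it was called without control 9 and within animals numbered 6 and below.

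Of the 3 kinases that shut the complex, Pdk4 was called and it fell. Pdk4, the isoform that rises in fasting and under fatty acid signals, read 6214, 5869 and 6470.1 in controls 1, 2 and 9. The high-dosed animals ran from 3034 (animal 2) over 3912 to 4881 (animal 10), all below every control. Pdk4 had a log2 fold change of -0.68 ± 0.12 (SE), 1.61-fold lower, with a limma adjusted p of 0.0054. A dimmer probe set gave -0.52 ± 0.18 (limma adjusted p = 0.105 over all probe sets). Pdk2, the most widely expressed isoform, was at 0.24 ± 0.08 with 7 of 8 high-dosed animals above all controls, but was not called (limma adjusted p = 0.072); it was called without high-dosed animal 8. Pdk1, an isoform induced by hypoxia, was at 0.02 ± 0.11 in its brightest probe set and 0.47 ± 0.15 in another (limma adjusted p = 0.075 over all probe sets). Whether the kinases differ from each other in their change was not tested.

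**Figure D3:**
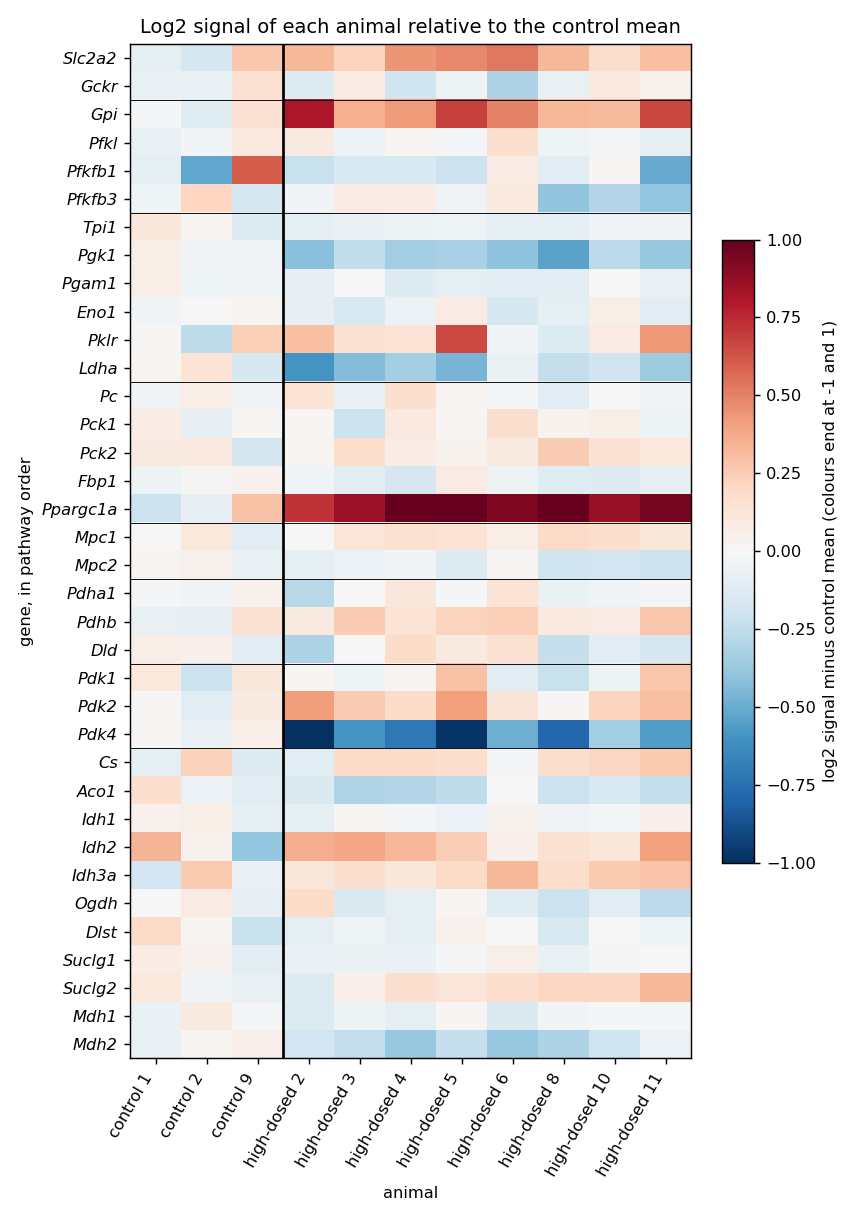
Log2 signal of each tested member (rows, pathway order) in each animal (columns), minus the mean of the 3 controls; red is higher and blue lower, with colours ending at -1 and 1. The rows of Ppargc1a and Gpi are red and those of Pgk1 and Pdk4 blue in all 8 high-dosed animals, and Pfkfb1 and Idh2 vary most between the controls.

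In the citrate cycle and its cytosolic counterparts, 1 of 11 tested members was called. Mdh2, the mitochondrial malate dehydrogenase that closes the cycle, read 5293, 5670.2 and 5788 in controls 1, 2 and 9. The high-dosed animals ran from 4275 (animal 4) over 4745 to 5345 (animal 11), with 7 of 8 below all controls and animal 11 just inside their range. The log2 fold change was -0.25 ± 0.06 (SE), with a limma adjusted p of 0.030. The call was lost in 7 of 24 settings, among them without each control in turn (limma adjusted p = 0.066, 0.094 and 0.103 without controls 1, 2 and 9); the direction held in all.

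Mdh1, the cytosolic malate dehydrogenase of the malate shuttle, gave different values in its probe sets. Its brightest probe set, with intensities of 12120.2, 13486 and 12500 in controls 1, 2 and 9 and 11483 to 12809 in the high-dosed animals, was at -0.06 ± 0.04 and not called. The dimmer probe set read 2419, 2955 and 3175 in the controls and 1599.9 to 2080.4, with a median of 1856, in the high-dosed animals, which all lay below every control. Its log2 fold change was -0.62 ± 0.10 (limma adjusted p = 0.0033 over all probe sets). With the mean over probe sets in place of the brightest, Mdh1 was called lower (-0.34, limma adjusted p = 0.0102). The transcript forms each probe set reads are not given in the sources used here.

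Of the other members of the cycle, none was called. Cs, citrate synthase, was at 0.13 ± 0.09, the mitochondrial isocitrate dehydrogenases Idh2 and Idh3a at 0.26 ± 0.13 and 0.20 ± 0.09, and the cytosolic Idh1 at -0.01 ± 0.04. Idh2 spanned 1269 (control 9) to 2128 (control 1) among the controls, against 1737 to 2232 in the high-dosed animals. Aco1, the cytosolic aconitase that also senses iron, was at -0.20 ± 0.07 with 7 of 8 high-dosed animals below all controls (limma adjusted p = 0.109), and was called without high-dosed animal 6. Idh3a was called without control 2. Ogdh and Dlst, subunits of the oxoglutarate dehydrogenase complex, were at -0.09 ± 0.08 and -0.05 ± 0.07, and the succinyl-CoA ligase subunits Suclg1 and Suclg2 at -0.03 ± 0.05 and 0.14 ± 0.08.

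**Figure D4:**
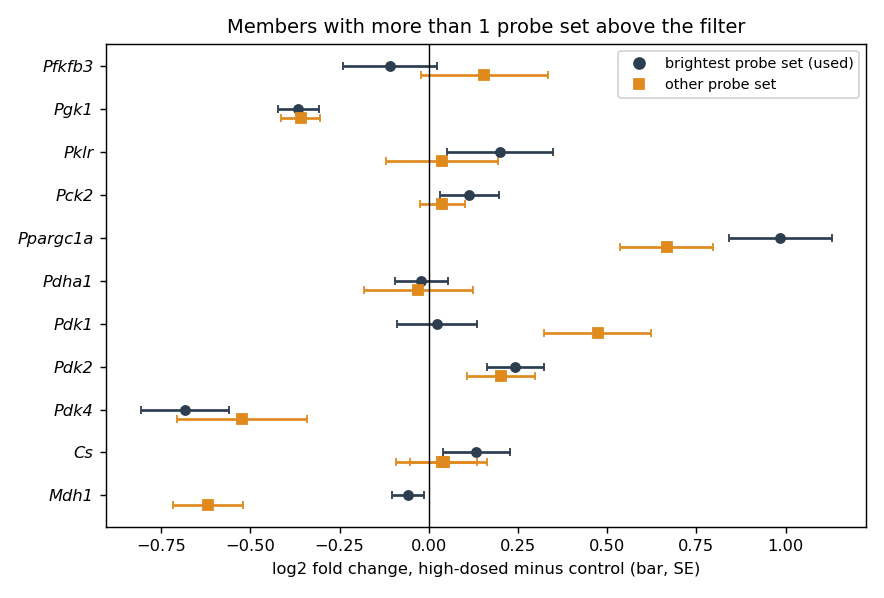
Log2 fold change (horizontal axis, high-dosed minus control; bars, SE) of each probe set above the filter for the 11 members that have more than 1. The probe sets share a sign in 10 members and differ in Pfkfb3; they stand farthest apart in Mdh1 (-0.06 and -0.62) and Pdk1 (0.02 and 0.47).

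Other genes of the same pathways, 111 listed by their role, gave 91 tested genes, of which 7 were called higher, 2 lower and 82 not called; their median log2 fold change was 0.01. The calls are 9.89% of the genes tested, about the 10.6% of all genes, with 7.69% higher and 2.2% lower beside 7.91% and 2.74%, so their number is no result about these pathways. The gluconeogenesis list held 4 of the 9 calls among 11 genes tested. Slc37a4, which carries glucose phosphate into the endoplasmic reticulum for release as glucose, rose 1.45-fold, from 4042 to 4686 in controls and 5465 to 7234 in high-dosed animals (limma adjusted p = 0.0014). Gk, glycerol kinase, which admits glycerol to the pathway, rose 1.44-fold, from 4121 to 4547 and 5337 to 6966 (limma adjusted p = 0.0013). Sds, which makes pyruvate from serine, rose 4.39-fold (limma adjusted p = 0.0039), with control intensities from 459.6 to 1170.3 and high-dosed intensities from 1823 to 5982. Its log2 fold change of 2.13 was 1.31, not called (limma adjusted p = 0.133), within animals numbered 8 and above, where control 9 (1170.3) is the control; in the other settings it was called. Gpd1, the cytosolic glycerol phosphate dehydrogenase that follows glycerol kinase, was 1.23-fold lower, from 8283 to 8516 in controls and 6218 to 7944 in high-dosed animals (limma adjusted p = 0.0089). For these 4 genes the groups did not overlap, so within the entry of glycerol 1 enzyme rose and the next fell.

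Among the other lists, Ldhd, the mitochondrial dehydrogenase of D-lactate, rose 1.29-fold (limma adjusted p = 0.044), with the lowest high-dosed animal (933) just above the highest control (924). The call was lost in 12 of 24 settings, among them without control 1 (0.181), control 2 (0.149) or high-dosed animals 2, 3, 4, 5 or 11 singly. It was the only 1 of 10 genes called in the list of glycolytic isoforms and remaining steps. Of 29 regulators, 3 were higher and 1 lower. Hif1a, the oxygen-regulated factor that drives glycolytic genes, rose 1.25-fold, from 2334 to 2654 in controls and 2538 to 3339 in high-dosed animals (limma adjusted p = 0.027). Irs1, an adaptor of the insulin receptor, is counted among the 3 (limma adjusted p = 0.028). In controls its mean was 7.15 (log2), below the filter at 7.40, and in high-dosed animals 7.51, so it entered the test only through the group where it is high. Sik1, a kinase induced by cAMP that restrains gluconeogenic transcription, was 1.34-fold higher at the edge of the threshold (limma adjusted p = 0.04996); its dimmer probe set was of the opposite sign, at -0.22 ± 0.12 (limma adjusted p = 0.303 over all probe sets). Mlxipl, the carbohydrate-responsive factor that drives Pklr and fat synthesis genes, was 1.32-fold lower, with 816 to 1144 in controls and 608 to 842 in high-dosed animals (limma adjusted p = 0.035). Without control 1 the limma adjusted p of Hif1a, Irs1, Sik1 and Mlxipl were 0.141, 0.0846, 0.25 and 0.205. Calls were also lost without control 9 for Hif1a (0.0901), Irs1 (0.123) and Mlxipl (0.131), without high-dosed animal 4 for Mlxipl (0.0552), and without control 2 (0.18) or high-dosed animals 2, 3, 4, 5, 8 or 11 for Sik1. No gene was called in the lists of glucose entry (8 tested), pyruvate and lactate transport and remaining pyruvate dehydrogenase genes (8), remaining citrate cycle genes (8), malic enzymes and carriers (10) or the pentose phosphate pathway (8). These counts rest on the brightest probe set: of 28 of these other genes with more than 1 probe set above the filter, 6 had another of opposite sign. In 3 another probe set passed when all were tested: Me1, malic enzyme, at -0.62 ± 0.17 (limma adjusted p = 0.049) against 0.23 in its brightest, Hnf4a, a hepatocyte factor, at 0.58 ± 0.14 (0.026) against -0.04, and Cebpa, another, at 0.36 ± 0.08 (0.017) against 0.20.

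**Figure D5:**
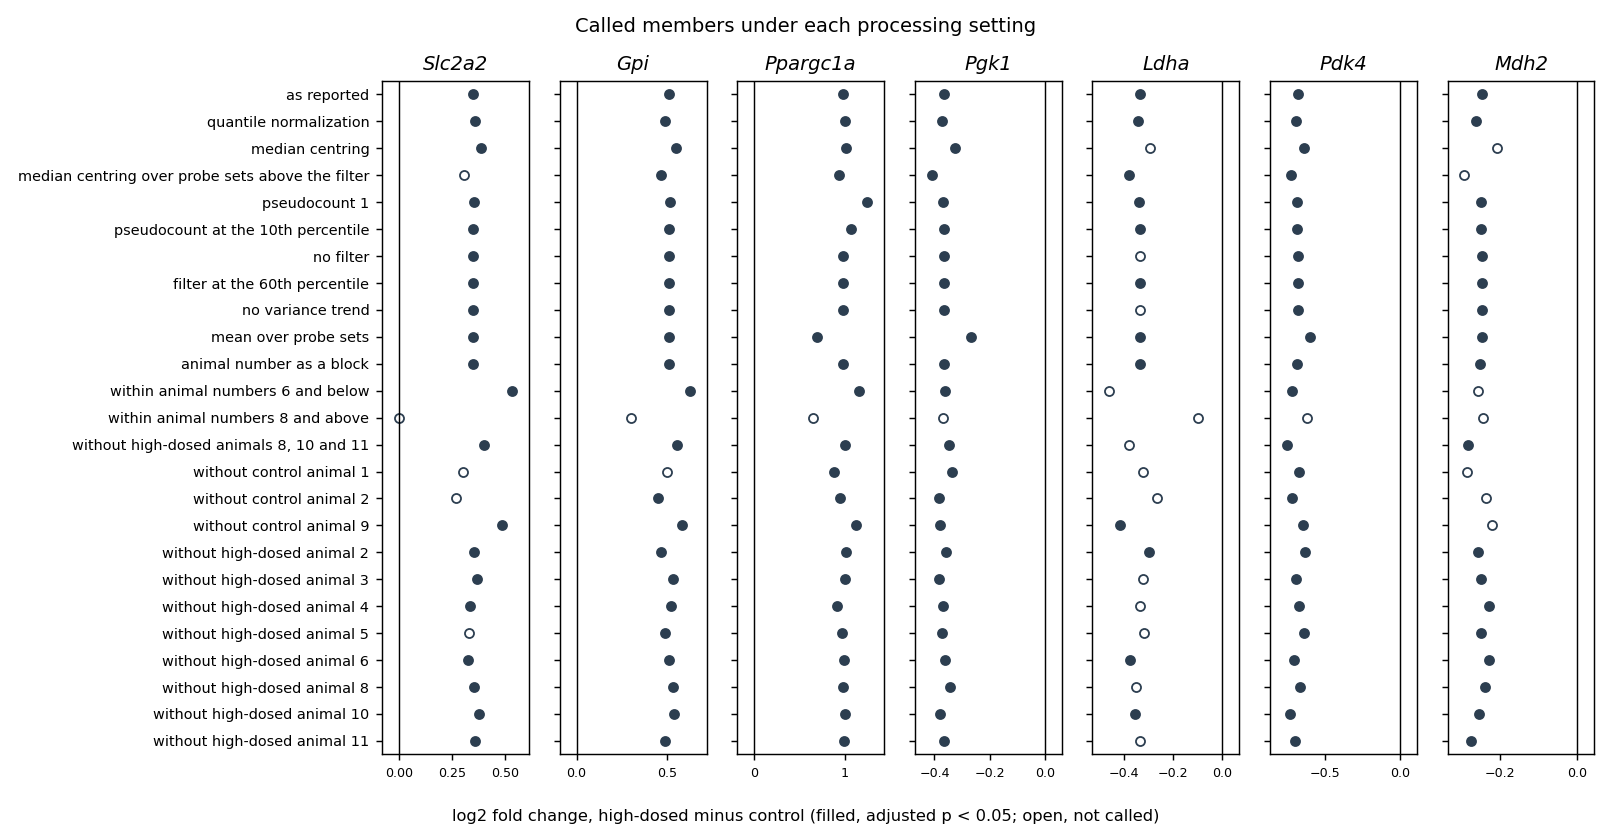
Log2 fold change of the 7 called members (panels, each with its own horizontal axis) as reported and under 24 other settings (rows); filled points have an adjusted p below 0.05. Pdk4, Pgk1 and Ppargc1a are filled in all but the comparison within animals numbered 8 and above, while Ldha is open in 13 rows and Slc2a2 falls to -0.00095 in that comparison.

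Leaving out control 1 left 1 higher and 2 lower calls (Ppargc1a, Pdk4 and Pgk1), and leaving out control 2 left 3 higher and 2 lower (Gpi, Idh3a, Ppargc1a, Pdk4 and Pgk1). Over all genes the same steps gave 325 and 759 calls in place of 1141. Within animals numbered 6 and below, with 2 controls and 5 high-dosed animals, the 7 members had log2 fold changes of 0.53 (Slc2a2), 0.62 (Gpi), 1.16 (Ppargc1a), -0.36 (Pgk1), -0.46 (Ldha), -0.73 (Pdk4) and -0.26 (Mdh2). Within animals numbered 8 and above they were -0.00095, 0.30, 0.65, -0.37, -0.10, -0.63 and -0.24 in the same order, with 0 calls among members and 3 over all genes. Pgk1, Pdk4 and Mdh2 were therefore of nearly the same size in both subsets, and Slc2a2, Gpi, Ppargc1a and Ldha were larger in the first; the difference between subsets was not tested.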

How the data were processed

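The authors deposited linear probe set intensity values for 31099 probe sets on 11 arrays; MAS5 is named, without version, per the submitters' processing notes. Scaling between arrays is not stated and no detection calls were used. Array means without the top and bottom 2% of values ran from 505 (high-dosed animal 2) to 543 (high-dosed animal 6). The range was 1 to 34328. Per the labels' protocols, Trizol RNA was biotin-labelled as cRNA. For arrays, their number (3 and 8) limits the precision. The labels name separate animals.

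Log2(intensity + 55.26), the 20th percentile of all values, was used; the 57 control probe sets were dropped, as were dim ones whose mean log2 signal lay below 7.40, the 40th percentile, which kept 18625. Symbols came from the platform annotation (20832 probe sets with 1 symbol, 436 with several, 9831 with none, none of the latter named). The brightest probe set stood for a gene. Groups were compared with limma 3.58.1 (R 4.3.3) with an intensity trend, two-sided, Benjamini-Hochberg over 10714 genes. Values of other probe sets are from the same model adjusted over all probe sets kept. On simulated data with 10714 genes, 83 of 100 genes changed 1.5-fold and 96 of 100 changed 2-fold were recovered, with 8 false calls. Simulated noise was independent between genes, without effects shared by an array. Changes below 1.5-fold, the size of most called members, were not simulated, so recovery of such changes is not known.

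Every member with a value is named, with up to 4 called genes from each list of other pathway genes. The other probe sets, Me1, Hnf4a, Cebpa and the markers named were chosen after their values were seen. The members and lists were chosen with earlier results of these data known. Alternatives covered scaling, pseudocount, filter, variance model, probe set rule, animal number and each animal in turn. Cross-hybridisation to pseudogenes or related genes was not tested.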

Additional observations from a re-analysis of the deposited data

Results flagged for a closer look

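The screen covered the 37 members with a value and the 9 other pathway genes called, each over the 8 high-dosed animals. In 3 of these 46 groups 1 animal stood apart from the other 7 by more than Dixon's critical value of 0.526, measured as its gap to the nearest animal over the whole range; chance flags about 1 in 20 groups. Ppargc1a was highest in high-dosed animal 4 (intensity 489, ratio 0.582), and without that animal its call remained. Gk was lowest in high-dosed animal 2 (5337, ratio 0.54), still above all controls. Mlxipl was lowest in high-dosed animal 8 (608, ratio 0.57), the animal aged week 10.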

How the results depend on the processing

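Of the 7 called members, 6 kept their direction in all 24 settings, and Pdk4, Pgk1 and Ppargc1a kept their call in all but the comparison within animals numbered 8 and above (1 control, assumed to vary like the others). Signal near background limits dim genes such as Ppargc1a. The cause of the changes below was not tested, except that settings within subsets hold fewer animals.

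Calls over all genes, 1141 as reported (74.2% higher), were 922 after quantile normalization (63.9% higher), 852 after median centring (82.7%) and 755 after median centring over probe sets above the filter (53.9%), a setting chosen after seeing the data. They were 1520 when animals numbered up to 6 and from 8 on formed blocks, 612 within animals numbered 6 and below, 3 within those numbered 8 and above and 716 without high-dosed animals 8, 10 and 11. Leaving out 1 animal gave 325 to 1406. Members called higher, 3 as reported, were 0 within animals numbered 8 and above and 1 to 4 on leaving out 1 animal. Members called lower, 4 as reported, were 2 after median centring, 2 within animals numbered 6 and below, 0 within those numbered 8 and above and 2 to 5 on leaving out 1 animal. Other pathway genes called, 9 as reported, were 0 within animals numbered 8 and above and 4 to 10 on leaving out 1 animal; called markers, 10 as reported, were 0 and 6 to 11.

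Signs turned as follows, as log2 fold changes. Within animals numbered 8 and above they were -0.00095 for Slc2a2, -0.15 for Pfkl, 0.069 for Tpi1, -0.114 for Pklr, -0.0253 for Pc, -0.107 for Pdk1, 0.0979 for Idh1, 0.154 for Dlst, 0.0865 for Suclg1, 0.0045 for Mdh1 and -0.0014 for Sik1. Within those numbered 6 and below they were 0.173 for Pfkfb1, -0.0116 for Pck2 and 0.0132 for Pdha1. Without high-dosed animals 8, 10 and 11, Pfkfb3 was at 0.0402 and Dld at 0.023. Median centring gave 0.0176 for Pdha1, 0.0261 for Idh1 and 0.009 for Suclg1, quantile normalization -0.0101 for Pc and -0.00868 for Pdk1, and centring over probe sets above the filter -0.0372 for Pfkl, -0.0346 for Pc, -0.0294 for Pck1 and -0.0208 for Pdk1. Leaving out 1 animal at a time gave -0.106 to 0.0076 for Gckr, -0.0281 to 0.057 for Pfkl, -0.415 to 0.147 for Pfkfb1, -0.196 to 1.57e-05 for Pfkfb3, -0.0122 to 0.0416 for Pc, -0.0245 to 0.0504 for Pck1, -0.0441 to 0.0155 for Pdha1, -0.0843 to 0.0789 for Pdk1, -0.0617 to 0.0163 for Idh1, -0.158 to 0.048 for Dlst and -0.0872 to 0.0068 for Suclg1. None of these genes was called as reported except Slc2a2 and Sik1. In all, 16 members not called changed sign in some setting and 5 were called in some setting. No paired analysis was possible because the groups share only animal number 2.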
